A study of Bos taurus with 170 samples.

Results

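Day 3 bovine embryos differed in how far the early embryonic transcripts had accumulated, and the 8 Day 3 embryos of the study, of 14 embryos in all, were compared here as embryos with high or low activation. Blastomeres of embryos produced in vitro were separated and sequenced one by one with SCRB-Seq, a plate-based method that reads the 3' end of each captured mRNA and tags each molecule with a random barcode (unique molecular identifier, UMI) through which PCR copies collapse to 1 count. After cells under 2000 UMI were left out, the 8 Day 3 embryos held 118 cells and the 6 Day 2 embryos 43 of the 161 cells kept. The UMI of an embryo's cells were summed, because cells of 1 embryo are not independent samples, and levels stand in CPM, UMI per 1000000 UMI on genes.

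Every embryo came from oocytes of slaughterhouse ovaries that were matured in vitro with LH and FSH, fertilised with frozen-thawed sperm and cultured in synthetic oviductal fluid with oestrous cow serum, and no embryo received a further treatment. The zona pellucida was dissolved with pronase and the blastomeres were separated by pipetting. Day 3 embryos were at the 16-cell stage and Day 2 embryos at the 8-cell stage. Breed, sex and parents of the embryos were not given in the sources used here. All 8 Day 3 embryos thus shared 1 stage label, and the split into high and low came from the RNA itself. The plate in the labels and the collection time in the study's methods divided them alike. Day3-E1 to Day3-E4, 2 low and 2 high embryos, were on plate 1 and were collected first. Day3-E5 (low) and Day3-E6 (high) were on plate 3 and followed. Day3-E7 and Day3-E8, both high, were on plate 2 and came last, so that for this pair plate, time and group cannot be told apart. The study also timed the third cleavage. The span from that cleavage to collection was shorter in all low than in all high embryos, by only minutes between Day3-E5 and Day3-E6. This span and the group therefore cannot be told apart, and its part in the results was not tested.

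In the mammalian embryo the first divisions run on mRNA and protein stored by the oocyte. At embryonic genome activation (EGA) transcription from the embryo's own genome takes over while the stored maternal mRNA is degraded. In cattle the main wave of activation falls around the third and the fourth cleavage, and it brings transcripts for ribosomes, RNA processing and metabolism as well as the first lineage-related transcription factors.

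The embryos were chosen by the summed level of 20 genes that the study, following earlier work, used as marks of the onset of embryonic transcription because oocytes and earlier stages lack their mRNA, 600 CPM or more being high and less being low. The low embryos were Day3-E1 at 129.96 CPM, Day3-E5 at 296 CPM and Day3-E3 at 429 CPM, with 47 cells in all. The high embryos were Day3-E6 at 872 CPM, Day3-E7 at 1002 CPM, Day3-E2 at 1021 CPM, Day3-E4 at 2074 CPM and Day3-E8 at 2132 CPM, with 71 cells. Day3-E3 and Day3-E6 were therefore the embryos next to the border on either side. Day 2 embryos held 88.3 to 165 CPM, so that Day3-E1 lay inside the Day 2 range.

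FOLR1, a folate receptor, and DDX3Y, a Y-linked RNA helicase gene, together made up 64.1% of the summed level in high and 63.0% in low embryos. The make-up differed, with means of 627 CPM for FOLR1 and 284 CPM for DDX3Y in high embryos. In low embryos the means were 74.6 and 105 CPM. DDX3Y was already at 59.8 to 126 CPM on Day 2. FOLR1 stood at 10.0 CPM in Day3-E1, at 107 CPM in both Day3-E3 and Day3-E5, between 288 and 309 CPM in Day3-E2, Day3-E6 and Day3-E7, and at 1121 and 1112 CPM in Day3-E4 and Day3-E8. On Day 2 its level was 10.66 to 17.2 CPM. Of the 20 genes, 19 had a higher mean in the high embryos, and 5 of them did not overlap between the groups. NANOG, a pluripotency factor, ranged from 13.56 to 176 CPM in high embryos against 1.67 to 23.6 CPM in low ones and overlapped. DDX3Y had reads in every embryo, and whether reads of its close X-linked copy DDX3X were counted with it was not tested. These values made the groups and are a description, and the 20 genes were left out of everything that follows.

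**Figure D1:**
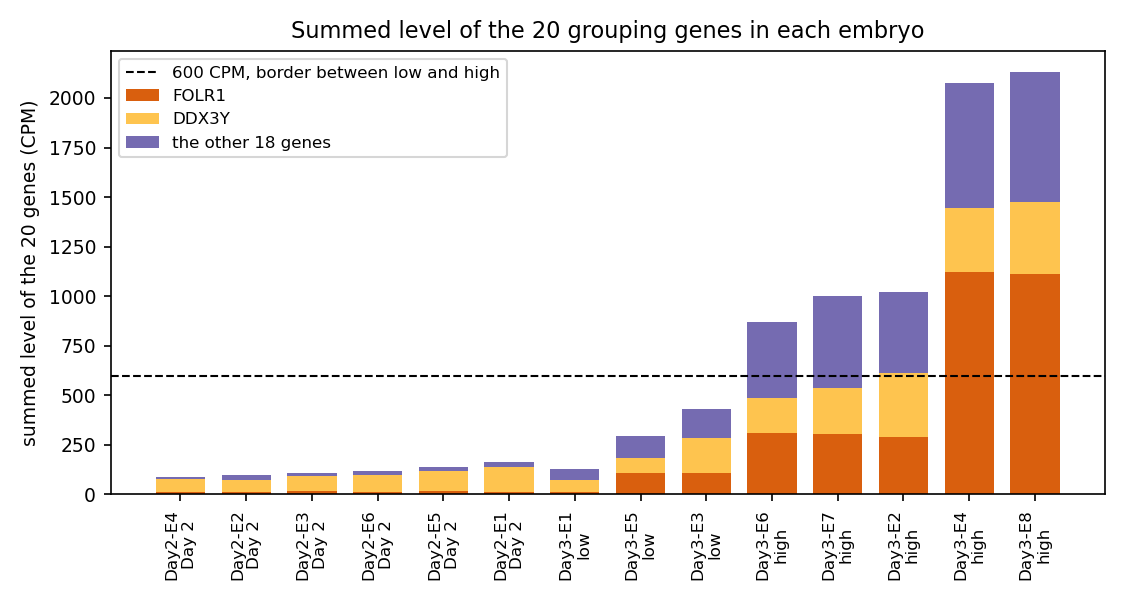
Bars give the summed level of the 20 grouping genes in each embryo in CPM, divided into FOLR1, DDX3Y and the other 18 genes, with the dashed line at 600 CPM. Day3-E1 sits at the height of the Day 2 embryos, and Day3-E4 and Day3-E8 stand above 2000 CPM.

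No measure of depth passed the test between the groups. High embryos gave 13 to 15 cells and 356712 ± 66097 UMI on genes (SD, n = 5), low embryos 14 to 17 cells and 455607 ± 125216 UMI (SD, n = 3). By the two-sided exact permutation test, whose smallest possible p is 0.0357 with 5 against 3 embryos, p was 0.214 for cells, 0.25 for UMI per embryo, 0.464 for the median UMI per cell and 0.143 for the median number of genes at 10000 UMI per cell. UMI on genes per UMI on ERCC, synthetic RNA added to each well in equal amount, was 41.1 ± 14.89 in high and 59.5 ± 16.81 in low embryos (exact permutation p = 0.0714, adjusted p = 0.312 over 5 measures). It was 67.3 to 70.5 in Day3-E1, Day3-E2 and Day3-E3 and 32.6 to 40.2 in Day3-E4 to Day3-E8. The set of cell barcodes divides the embryos in the same way, with Day3-E1 and Day3-E2 in the first set and Day3-E4 to Day3-E8 in the later one. The labels give 93 barcodes, of which 77 were used for a second cell, 15 of them for a cell of a high and a cell of a low embryo, and Day3-E3 is left unclear by them, since 15 of its barcodes were used once and 1 also in Day 2. It was placed in the first set by its ERCC ratio, so its own ratio is no evidence for the set. The placement is uncertain, because the first set was taken to hold the Day 2 embryos too, with which Day3-E3 shares a barcode. The ratio also rests on 1 cell of 4177 UMI, whose own ratio was 3.06. Without that cell Day3-E3 was at 88.8, outside the 64.8 to 71.7 of the embryos in the first set. All counts below that use the barcode set depend on this placement. The first set then held 2 low and 1 high embryo and the later set 1 low and 4 high embryos.

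The question of the comparison was which other transcripts moved with the 20 genes. Between high and low embryos 1149 of 6060 genes tested (18.96%) were called at an adjusted p under 0.05 (edgeR quasi-likelihood test with Benjamini-Hochberg adjustment). Of these, 877 genes (14.47%) were higher and 272 (4.488%) lower in high embryos. An unadjusted p under 0.05 was found for 2130 of the 6060 genes (35.15%). Because the groups were formed from RNA of the same libraries, a p here says that a gene moved with the 20 genes beyond the spread within the groups. Since UMI were summed over cells, fewer cells holding a transcript and less of it per cell cannot be told apart in these values.

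The size of the call set depended on single embryos and on the barcode set. Without Day3-E1 305 genes were called, without Day3-E5 446, without Day3-E4 623, and without both Day3-E4 and Day3-E8 366. With the barcode set as a covariate the number was 220, of which 196 were higher. With the plate as a covariate, which was added after the data were seen, edgeR called 0 genes, the lowest adjusted p was 0.0508, and 1389 genes had an unadjusted p under 0.05. All 1149 genes had the same sign of the log2 fold change in that fit, as the called genes had in every other fit that tested them. The genes were called on these same embryos, which fixes this in part, so that it is a description. Every call below is one without the plate. The balance of directions depended on the scaling: higher genes were 76.3% of the calls with TMM scaling (edgeR's trimmed mean of M-values), 62.2% without scaling beyond the UMI total and 18.3% with scaling by ERCC UMI. Over all genes, the log2 fold change had a median of −0.11, −0.30 and −0.84 under these scalings, and the changes below are to be read against it. The ERCC ratio divided the embryos as the barcode set did, so ERCC scaling alone cannot be told apart from the set. With ERCC scaling and the barcode set as a covariate, 56.1% of the calls were higher, at a median of −0.41.

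A larger share of the higher than of the lower calls was kept when embryos were left out, but the scaling reversed this. With ERCC scaling all 272 lower genes and 223 of the 877 higher genes (25.4%) kept their call. Without scaling beyond the UMI total, all 272 lower and 745 of the higher genes (84.9%) did. Of the 877 higher genes, 242 (27.6%) were called in each of the 8 fits that left out 1 embryo, and 151 (17.2%) also with the barcode set as a covariate. Of the 272 lower genes, 15 (5.51%) were called in each of the 8 fits, and 12 (4.41%) also with the covariate. A gene that no longer passed the filter counts here as not called. With the covariate alone, 42 of the 71 higher genes named by rule kept their call, but KLF4, KLF5, TFAP2C, PRDM14, EED, PCNA, CDK1, CCNE1, GADD45A, YTHDF2 and YTHDF3 were among those that did not. Of the 24 named lower genes, FAM76A, LGALS3, MYF5, NDUFC1, TBCA and YTHDF1 kept it. Within both barcode sets every high embryo stood above every low one for 763 of the 877 higher genes, against 18.37% of all genes tested, and below for 267 of the 272 lower genes, against 25.96% of all. The genes were called on these same embryos, so that both counts are a description.

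Transcripts that were rare on Day 2 made up more of the RNA of high embryos. Genes with a mean under 5 CPM on Day 2, counted over all 3498 of them whether tested or not, held 1.65% ± 0.385 of the UMI in high (SD, n = 5) and 0.721% ± 0.176 in low embryos (SD, n = 3). The values were 0.522%, 0.783% and 0.856% in Day3-E1, Day3-E3 and Day3-E5, and 1.39%, 2.102%, 1.24%, 1.49% and 2.01% in Day3-E2, Day3-E4, Day3-E6, Day3-E7 and Day3-E8, against 0.4% to 0.544% on Day 2. The groups did not overlap, and Day3-E1 again lay within the Day 2 range. Only 185 of these genes passed the filter of 40 UMI over the 8 embryos, and those could pass mainly through the high embryos, so their calls are not counted.

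The genes that were most abundant on Day 2 showed the opposite. The 500 genes with the highest mean on Day 2, all of them tested, held 35.7% ± 4.01 of the UMI in high and 44.8% ± 1.302 in low embryos. The share was 46.2% in Day3-E1, 43.7% in Day3-E3 and 44.4% in Day3-E5, close to the 45.0% to 46.5% of Day 2 embryos. It was 30.4% to 40.1% in high embryos, lowest in Day3-E8 and Day3-E4. Of the 500 genes, 63 (12.6%) were called lower and 28 (5.6%) higher, with a median log2 fold change of −0.46 against −0.11 over all genes tested, and 410 had a lower mean in high embryos. The number called lower fell to 6 without Day3-E1, to 15 without Day3-E5, to 16 without Day3-E4 and to 5 with the barcode set as a covariate, while the median stayed at −0.45, −0.47, −0.41 and −0.42.

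**Figure D2:**
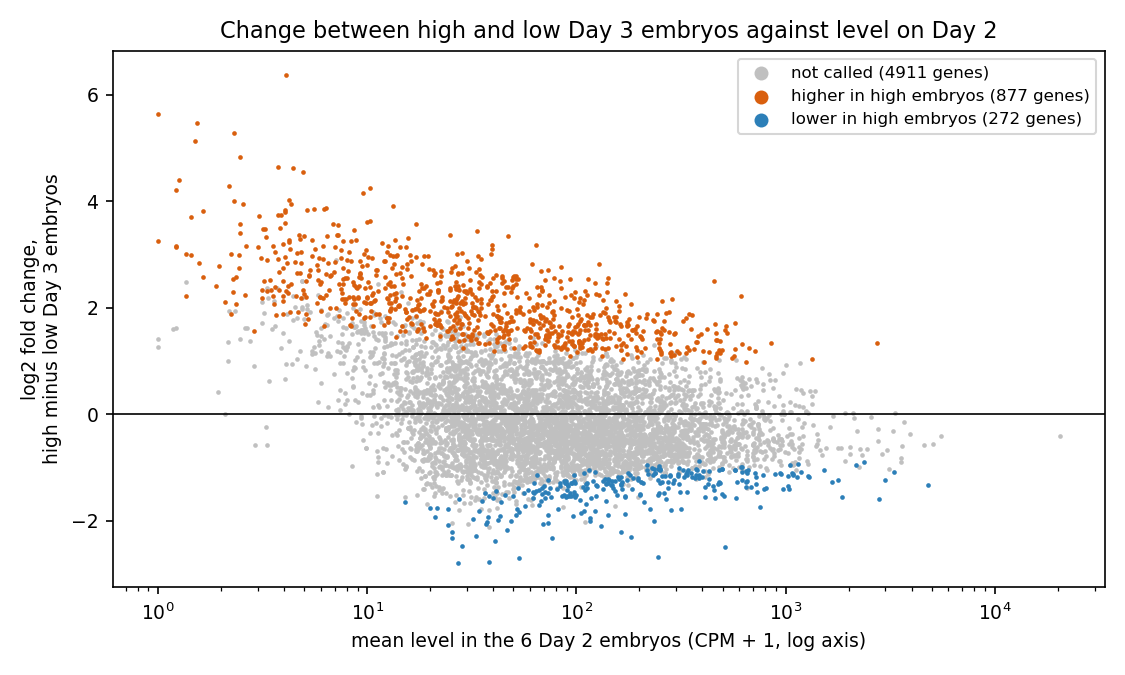
Each point is 1 of 6060 genes, placed by its mean level in the 6 Day 2 embryos (CPM + 1, log axis) and by its log2 fold change between high and low Day 3 embryos. The 877 higher genes spread over low and middle Day 2 levels with larger changes than the 272 lower genes, which lie at middle and high Day 2 levels.

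For most of the genes called, the low mean stood between the Day 2 and the high mean. The low mean lay between the Day 2 mean and the high mean for 683 of the 877 higher genes (77.9%) and for 199 of the 272 lower genes (73.2%). Day3-E1 was within the range of the Day 2 embryos for 547 of the higher and 171 of the lower genes. Day3-E4 or Day3-E8 was the highest embryo for 773 of the higher genes and the lowest for 239 of the lower genes, and both had also the highest 20-gene sums. These counts cover called genes only. No share over all genes tested was taken for them and the call fixes part of them, so that they are a description. Of the higher genes, 634 did not overlap between the groups, against 11.86% of all genes tested, and of the lower genes 248 did not, against 14.04% of all, which again is fixed in part by the call.

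Among the largest rises were genes with almost no UMI in low embryos, which passed the filter of 40 UMI only through the high embryos and are given as a description. AQP11, an aquaporin, was at 0 in all 3 low embryos and at 27.1, 41.8, 4.38, 12.9 and 33.5 CPM in Day3-E2, Day3-E4, Day3-E6, Day3-E7 and Day3-E8. Against a floor of 3 UMI over the low group it was at least 10.47-fold higher, with 41 UMI in the high group. TDH, the threonine dehydrogenase that feeds threonine into one-carbon metabolism, had 1 UMI in low and 80 UMI in high embryos, a ratio of 61.3 with a counting interval of 10.69 to 2451, and no UMI on Day 2. SNHG4, a small nucleolar RNA host gene, had 2 UMI in low and 102 in high embryos, a ratio of 39.1 with an interval of 10.55 to 327.

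The same rule named FAM214B, NIPAL1, the lysosomal protease gene CTSL, the Rab regulator TBC1D2, MEDAG, SPATA5L1 and the pseudouridine synthase gene PUS7, each with 1 to 3 UMI in the low group and 46 to 75 UMI in the high group, and TMED5, which works in transport between endoplasmic reticulum and Golgi. The rule took only called genes without overlap between the groups.

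Enzymes of nucleotide synthesis were represented among the 12 largest rises by CAD. This gene, whose product carries out the first steps of pyrimidine synthesis, stood at 3.33, 10.47 and 12.996 CPM in Day3-E1, Day3-E3 and Day3-E5 and at 146, 194, 37.3, 90.5 and 229 CPM in Day3-E2, Day3-E4, Day3-E6, Day3-E7 and Day3-E8. The log2 fold change was 4.25 ± 0.69 (SE, edgeR adjusted p = 0.00559). All high embryos exceeded all low ones, as the rule required, and the low embryos remained near the 6.399 to 12.2 CPM of Day 2. With 11 UMI in the low and 242 in the high group, CAD passed the filter of 40 UMI only through the high embryos. Its call is therefore a description. The same holds for other higher genes with fewer than 40 UMI in the low group. These are TMED5, IMPDH1, MTHFD1L, AMT, KLF3, KLF5, PRDM14, POLR1C, PHF5A, PSMA1, MANF and CDKN2D. The numbers called higher in the gene lists below include such genes.

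GART, a trifunctional enzyme of purine synthesis, followed with 178 to 811 CPM in high and 13.33 to 91.6 CPM in low embryos, a log2 fold change of 3.27 ± 0.61 (edgeR adjusted p = 0.00559). IMPDH1, which commits inosine monophosphate to guanine nucleotides, was at 48.2 to 209 CPM against 3.33 to 20.8 CPM, and PRPS1, which makes the activated ribose for both pathways, at 188 to 793 CPM against 25.0 to 120 CPM. Of 21 genes of nucleotide synthesis tested, 5 (23.8%) were called higher and 0 lower, against 14.47% and 4.488% of all genes. The median was 0.17 and turned to −0.02 without scaling and to −0.60 with scaling by ERCC UMI. The 4 named genes kept their call in each fit without 1 embryo and with the barcode set as a covariate. For CAD and IMPDH1 this is a description, for the reason given above.

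Folate and amino acid metabolism had a like pattern of single members. MTHFD1L, a mitochondrial folate enzyme, was at 92.0 to 512 CPM in high and 13.33 to 39.3 CPM in low embryos (log2 fold change 3.45 ± 0.64). AMT of the glycine cleavage system and MAT2A, which makes S-adenosylmethionine, were also called higher. Of the 19 genes tested, 5 (26.3%) were higher and 1 (5.26%) lower, against 14.47% and 4.488% of all genes. The median was −0.22, and it was also negative without scaling (−0.39) and with ERCC scaling (−0.97).

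Embryonic transcription factors were called higher in 12 of 26 tested genes (46.2%, against 14.47% of all genes) and lower in 0. The median log2 fold change was 0.81. The number higher was 6 without Day3-E1, 5 without Day3-E5 and 3 with the barcode set as a covariate, at medians of 0.96, 1.298 and 0.67, and with ERCC scaling 6 were higher and 3 lower at a median of 0.13. KLF5, a Krüppel-like factor required for the blastocyst lineages, stood at 10.0, 52.4 and 15.596 CPM in Day3-E1, Day3-E3 and Day3-E5 and at 102, 374, 83.3, 97.0 and 288 CPM in Day3-E2, Day3-E4, Day3-E6, Day3-E7 and Day3-E8 (log2 fold change 3.155 ± 0.68, edgeR adjusted p = 0.00691). KLF3, another member of the family, was at 37.3 to 212 CPM against 5.1985 to 15.7 CPM (3.86 ± 0.68). ATF3, a stress-inducible factor, was at 209 to 454 CPM against 49.98 to 89.0 CPM (2.44 ± 0.40), and KLF10 at 233 to 482 CPM against 25.0 to 120 CPM (2.56 ± 0.47).

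Other factors stood above all Day 2 embryos in the low embryos already. KLF4, a pluripotency factor, was at 207, 1147 and 671 CPM in Day3-E1, Day3-E3 and Day3-E5 and at 1319 to 2340.1 CPM in high embryos, compared with 68.5 to 99.8 CPM on Day 2 (log2 fold change 1.65 ± 0.46, edgeR adjusted p = 0.0193). TFAP2C, a trophectoderm factor, was at 43.3, 487 and 263 CPM in these low embryos and at 587 to 994 CPM in high ones (1.88 ± 0.53, edgeR adjusted p = 0.0213). The calls of both were lost without Day3-E1, without Day3-E5, without both Day3-E4 and Day3-E8, with the barcode set as a covariate and with ERCC scaling.

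PRDM14, which represses differentiation in the germline and in pluripotent cells, was at 0, 15.7 and 0 CPM in Day3-E1, Day3-E3 and Day3-E5 and at 6.57 to 113 CPM in high embryos, which overlapped although it was called. Not called were MYC at 22.6 to 103 against 6.66 to 31.4 CPM (edgeR adjusted p = 0.0716), POU5F1 at 2.99 to 54.3 against 36.7 to 55.0 CPM, and SALL4 at 687 to 1038 against 637 to 1199 CPM, 3 regulators of proliferation and pluripotency. Called higher were 1 of 7 trophectoderm genes (TFAP2C), 2 of 6 epiblast genes (KLF4 and PRDM14) and 0 of 3 hypoblast genes. None of the genes in these lineage lists was called lower. Over all genes tested 14.47% were called higher, and lists this small cannot be told apart from that share. KLF17 was not analysed here.

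**Figure D3:**
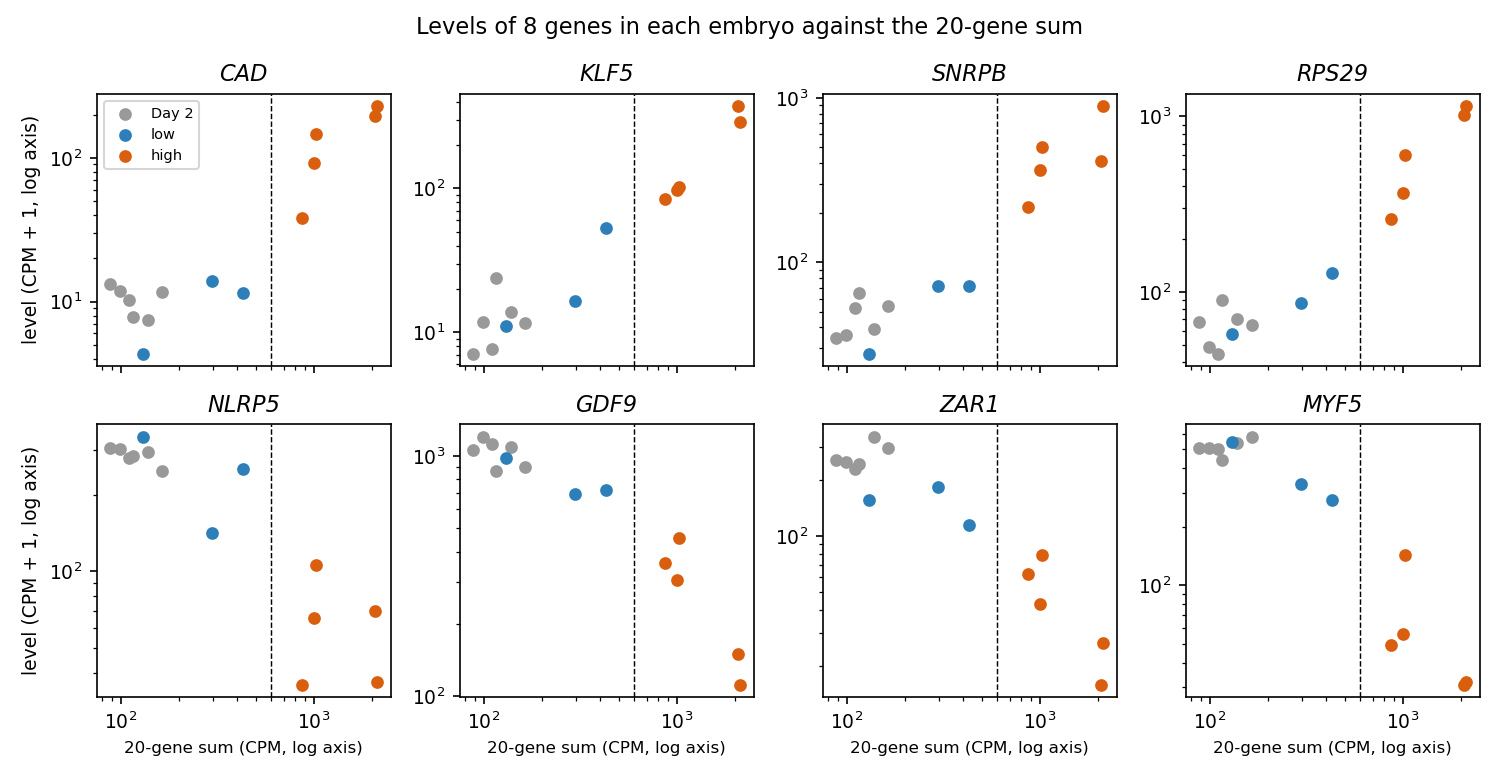
Each panel plots 1 gene (CPM + 1, log axis) against the 20-gene sum (CPM, log axis) in the 6 Day 2, 3 low and 5 high embryos, with the dashed line at 600 CPM. CAD, KLF5, SNRPB and RPS29 lie higher and NLRP5, GDF9, ZAR1 and MYF5 lower in all high than in all low embryos.

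The protein synthesis machinery gave the broadest change. Of 77 cytosolic ribosomal protein genes tested, 50 (64.9%, against 14.47% of all genes) were called higher and 0 lower. The median log2 fold change was 1.57, and 74 had a positive value. Their summed level was 21638, 26844 and 30744 CPM in Day3-E1, Day3-E3 and Day3-E5 and 45525, 62581, 36372, 55602 and 74048 CPM in Day3-E2, Day3-E4, Day3-E6, Day3-E7 and Day3-E8, compared with 16921 to 21385 CPM on Day 2. The groups did not overlap. Day3-E8 and Day3-E4 were highest and Day3-E1 lowest as in the 20-gene sum, whereas Day3-E7 stood above Day3-E2 and Day3-E5 above Day3-E3, the reverse of their order in that sum.

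RPS29, a small-subunit protein, stood at 261 to 1148 CPM in high and 56.6 to 128 CPM in low embryos (log2 fold change 3.17 ± 0.55, edgeR adjusted p = 0.00559), and RPL35, a large-subunit protein, at 408 to 1223 CPM against 102 to 259 CPM (2.55 ± 0.47, edgeR adjusted p = 0.00559). Without Day3-E1 25 of the 77 genes were called higher, without Day3-E4 and Day3-E8 29 of 75, with the barcode set as a covariate 20 and with ERCC scaling 20, at medians of 1.41, 1.11, 1.38 and 0.83. Ribosomal protein genes have many near-identical pseudogenes, with which the authors' mapping could split reads.

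Of 63 ribosome biogenesis genes, whose products build the ribosome, 26 (41.3%, against 14.47% of all genes) were called higher and 1 lower. The median was 0.96. Without Day3-E1 11 were higher, without Day3-E5 13 and with the barcode set as a covariate 9, at medians of 0.85, 1.07 and 0.81, and with ERCC scaling 8 were higher and 2 lower at a median of 0.25. POLR1C, a subunit of RNA polymerases I and III, was at 5.00, 23.6 and 36.4 CPM in Day3-E1, Day3-E3 and Day3-E5 and at 96.4 to 384 CPM in high embryos (log2 fold change 3.61 ± 0.62, edgeR adjusted p = 0.00559). NOP56, a core protein of box C/D small nucleolar ribonucleoproteins, was at 524 to 1936 CPM against 153 to 348 CPM (2.46 ± 0.49). IMP3 and NOP10, which act in the processing of ribosomal RNA, were also called, with 3.02 ± 0.58 and 2.398 ± 0.49.

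Translation factors were called higher in 14 of 48 genes (29.2%) and lower in 3 (6.25%), against 14.47% and 4.488% of all genes. The median was 0.57. With ERCC scaling 0 were higher and 4 lower at a median of −0.17, and without Day3-E1 1 was higher. EEF2, which moves the ribosome along the mRNA, was at 831 to 1431 CPM in high and 338 to 560.3 CPM in low embryos (log2 fold change 1.55 ± 0.35, edgeR adjusted p = 0.00772). With the barcode set as a covariate, EEF2 was the 1 gene of the list that was still called, but its call was lost without Day3-E1 and with ERCC scaling.

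Spliceosome genes were called higher in 24 of 65 (36.9%, against 14.47% of all genes) and lower in 2, at a median of 0.87. With ERCC scaling the counts were even, with 8 higher and 8 lower at a median of 0.07, and 10 were higher without Day3-E1, 10 without Day3-E5 and 9 with the barcode set as a covariate. SNRPB, a core protein of the spliceosomal small nuclear ribonucleoproteins, was at 26.7, 70.7 and 70.2 CPM in Day3-E1, Day3-E3 and Day3-E5 and at 502, 412, 217, 365 and 893 CPM in Day3-E2, Day3-E4, Day3-E6, Day3-E7 and Day3-E8 (log2 fold change 3.35 ± 0.54, edgeR adjusted p = 0.00559). SF3B3 and PHF5A, which both belong to the SF3B complex that binds the branch site, and the splicing regulator SRSF6 had log2 fold changes of 2.59 ± 0.48, 2.96 ± 0.56 and 2.29 ± 0.43. All 4 kept their call in each fit without 1 embryo and with the barcode set as a covariate.

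**Figure D4:**
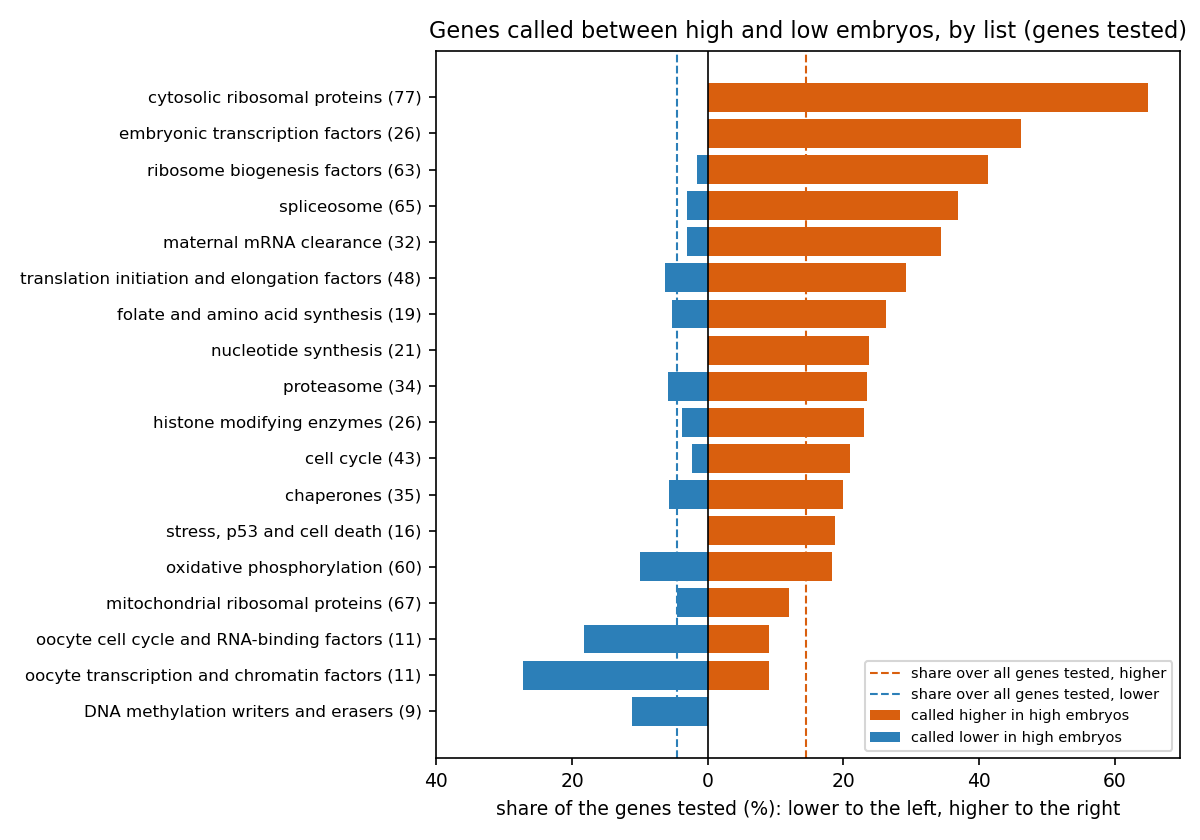
Bars to the right and left give the share of each list's tested genes (their number in brackets) called higher and lower in high embryos, for lists with 9 or more genes tested, and dashed lines mark the 14.47% and 4.488% over all genes tested. Cytosolic ribosomal proteins reach 64.9% higher, and the oocyte lists at the bottom extend to the left, up to 27.3%.

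Mitochondrial lists had medians near that of all genes. Of 67 mitochondrial ribosomal protein genes, 8 (11.9%, against 14.47% of all genes) were higher and 3 (4.48%) lower, at a median of 0.11. Of 60 genes of oxidative phosphorylation, 11 (18.3%) were higher and 6 (10%) lower, at a median of −0.12, and the share lower stood above the 4.488% of all genes. With ERCC scaling 4 were higher and 12 lower, and without Day3-E1 5 and 1. Members of the same complex differed in direction: NDUFB2 of complex I stood at 112 to 442 CPM in high and 13.33 to 65.5 CPM in low embryos (log2 fold change 3.01 ± 0.59), whereas NDUFC1 of complex I stood at 10.297 to 45.3 CPM against 86.4 to 198 CPM (−1.88 ± 0.43).

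The proteasome list had 8 of 34 genes (23.5%) higher and 2 (5.88%) lower, against 14.47% and 4.488% of all genes. Among the higher genes was PSMA1, a subunit of the core particle, at 19.7 to 105 CPM against 0 to 10.397 CPM (3.84 ± 0.77). Chaperones had 7 of 35 genes (20%) higher and 2 (5.71%) lower, against the same shares of all genes. MANF, a protein of the endoplasmic reticulum stress response, was higher at 41.6 to 172 CPM against 5.00 to 10.47 CPM (3.85 ± 0.61), and PFDN1, a subunit of prefoldin, was lower (−1.36 ± 0.37). The medians of these lists, −0.13 and 0.05, were near that of all genes.

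Cell cycle genes were called higher in 9 of 43 (20.9%, against 14.47% of all genes) and lower in 1, at a median of 0.18. The number higher was 2 without Day3-E1 and 1 with the barcode set as a covariate, and with ERCC scaling 1 was higher and 2 were lower at a median of −0.57. PCNA, the sliding clamp of DNA replication, was at 509 to 1196 CPM in high and 162 to 346 CPM in low embryos (log2 fold change 1.89 ± 0.41, edgeR adjusted p = 0.00691). CDK1, the mitotic kinase, was called as well but overlapped, with 118 CPM in Day3-E6 and 130.0 CPM in Day3-E5. CCNE1, which drives entry into S phase, and the CDK inhibitor gene CDKN2D had log2 fold changes of 2.03 ± 0.47 and 2.08 ± 0.43.

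Among chromatin modifiers the lower calls were 1 gene in each list. Of 26 histone modifying enzymes, 6 (23.1%) were higher and 1 (3.85%) lower, against 14.47% and 4.488% of all genes. SIRT1, a histone deacetylase, was at 184 to 419.6 CPM in high and 33.3 to 107 CPM in low embryos (2.54 ± 0.46), and EED, a core subunit of Polycomb repressive complex 2, at 92.0 to 236 CPM against 31.2 to 60.2 CPM (2.25 ± 0.47). SUV39H2, an H3K9 methyltransferase, was at 10.297 to 71.1 CPM against 109 to 199.9 CPM (−1.52 ± 0.43), a call that was lost without Day3-E1, Day3-E3 or Day3-E4 and with the barcode set as a covariate. Of 9 DNA methylation genes, 0 were higher and 1 was lower, the maintenance methyltransferase gene DNMT1, which is also counted among the oocyte genes below.

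Genes linked to stress, p53 and cell death, which were set beside the results as a sign of RNA quality, were called higher in 3 of 16 (18.8%, against 14.47% of all genes) and lower in 0. With ERCC scaling 0 were higher and 3 lower at a median of −0.62, and with the barcode set as a covariate edgeR called 0. Their summed level was 2676 to 3328 CPM in low and 3509.5 to 5741 CPM in high embryos. GADD45A, which responds to DNA damage, was at 892 to 1961 CPM against 302 to 463 CPM (log2 fold change 1.92 ± 0.40), and the other 2 called were the survival factor MCL1 and the stress factor ATF4. The part of this list in the other results was not tested.

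Maternal transcripts were lower in high embryos for part of the list. Over 4 lists of oocyte genes, 29 were tested. Of these, 8 (27.6%) were called lower and 2 (6.9%) higher, against 4.488% and 14.47% of all genes. The median log2 fold change of the 29 was −0.66. GDF9, a growth factor secreted by the oocyte, stood at 985, 725 and 697 CPM in Day3-E1, Day3-E3 and Day3-E5 and at 454, 149, 359, 304 and 111 CPM in Day3-E2, Day3-E4, Day3-E6, Day3-E7 and Day3-E8 (log2 fold change −1.40 ± 0.36, edgeR adjusted p = 0.0135). Day 2 embryos held 864 to 1206 CPM. Day3-E4 and Day3-E8 were lowest, and the groups did not overlap.

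NLRP5, a member of the subcortical maternal complex, was at 337, 251 and 140.4 CPM in Day3-E1, Day3-E3 and Day3-E5 and at 105, 68.7, 35.1, 64.7 and 36.0 CPM in Day3-E2, Day3-E4, Day3-E6, Day3-E7 and Day3-E8 (log2 fold change −1.80 ± 0.39, edgeR adjusted p = 0.00705). ZAR1, an oocyte RNA-binding protein needed at the transition from oocyte to embryo, was at 113 to 182 CPM in low and 14.94 to 78.0 CPM in high embryos (−1.60 ± 0.41, edgeR adjusted p = 0.0139). NLRP9, related to NLRP5, was at 390.1 to 515 CPM against 62.8 to 366 CPM (−1.47 ± 0.41, edgeR adjusted p = 0.0193).

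The histone chaperone gene NPM2 (−1.16 ± 0.36), DNMT1 (−0.94 ± 0.31), the germ cell RNA-binding factor gene DAZL (−1.30 ± 0.36) and the bovine oocyte gene BCAR4 (−1.28 ± 0.35) were the other 4 that were lower. None of these 8 genes overlapped between high and low embryos. Of all genes tested 14.04% did not overlap in this direction, and 248 of the 272 genes called lower did not. The call thus fixes this in part. DAZL had a mean of 140 CPM on Day 2, 269 CPM in low and 96.7 CPM in high embryos, so its low mean stood above that of Day 2. Not called were OOEP of the subcortical maternal complex at 59.2 to 188 against 225 to 265 CPM (edgeR adjusted p = 0.172), ZP3 at 117 to 237 against 259 to 333 CPM (edgeR adjusted p = 0.139), ZP2 at 249.7 to 721 against 806 to 1034 CPM and ZP4 at 327 to 1144 against 1076 to 1349 CPM, the latter 3 encoding zona pellucida proteins. UCHL1, an oocyte deubiquitinase, was at 0 to 50.9 against 20.8 to 89.0 CPM and was not called. BMP15 and BTG4 were not analysed here.

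The 2 genes of the oocyte lists that were higher were BRDT and PLK4. BRDT, a bromodomain protein of the testis, stood at 109.6 to 377 against 30.0 to 139 CPM (1.80 ± 0.51) and PLK4, which drives centriole duplication, at 61.0 to 106 against 23.3 to 55.0 CPM (1.503 ± 0.45). The maternal calls depended on single embryos and on the barcode set. Of the 29 genes, 2 were called lower without Day3-E1, 3 without Day3-E4, 3 without Day3-E5, 1 of 28 without both Day3-E4 and Day3-E8, and 0 with the barcode set as a covariate in edgeR, where over all genes 1591 had an unadjusted p under 0.05. The median log2 fold change was −0.69, −0.58, −0.68, −0.42 and −0.69 in these fits, against −0.66 with all 8 embryos. With ERCC scaling 15 were lower and 0 higher, at a median of −1.34. NLRP5 was the 1 maternal gene called in each fit without 1 embryo.

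Among all genes, the rule for large falls named genes outside the oocyte lists. MYF5, known as a myogenic factor, stood at 545, 272 and 333 CPM in Day3-E1, Day3-E3 and Day3-E5, within or below the 442 to 581 CPM of Day 2, and at 142, 29.9, 48.2, 55.0 and 30.9 CPM in Day3-E2, Day3-E4, Day3-E6, Day3-E7 and Day3-E8 (log2 fold change −2.50 ± 0.42, edgeR adjusted p = 0.00559). TBCA, a tubulin folding cofactor, was at 10.297 to 44.1 CPM in high and 120.4 to 187 CPM in low embryos (−2.31 ± 0.40, edgeR adjusted p = 0.00559). Both kept their call in each fit without 1 embryo and with the barcode set as a covariate.

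LGALS3, a galectin, was at 0 to 13.15 CPM against 31.4 to 62.4 CPM (−2.70 ± 0.64), and FAM76A at 0 to 6.57 CPM against 20.9 to 33.8 CPM (−2.80 ± 0.70). DTWD1, ICA1, the amino acid transporter gene SLC6A20, DSCC1 of sister chromatid cohesion, SNX22, MIER2, ADHFE1 and the planar polarity gene VANGL1 completed the 12, with log2 fold changes between −2.78 and −2.17. The low embryos held each of these genes at levels above all high embryos, as the rule required.

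Genes for the clearance of maternal mRNA were called higher in 11 of 32 (34.4%, against 14.47% of all genes) and lower in 1. The median was 0.13, and −0.08 without scaling. With ERCC scaling 1 was higher and 3 lower at a median of −0.62, with the barcode set as a covariate 1 was higher and 1 lower, and without Day3-E1 or without Day3-E5 3 were higher and 1 lower. BTG1, which recruits deadenylases, was at 38.3, 159.7 and 177 CPM in Day3-E1, Day3-E3 and Day3-E5 and at 475 to 888 CPM in high embryos (log2 fold change 2.61 ± 0.48, edgeR adjusted p = 0.00559). The 3 readers of N6-methyladenosine moved in different directions. YTHDF2, which sends bound mRNA to decay, was at 184 to 564 CPM in high and 39.99 to 139 CPM in low embryos (2.137 ± 0.49, edgeR adjusted p = 0.00869). YTHDF3 was at 159.99 to 414 CPM against 96.2 to 108 CPM (1.74 ± 0.39), whereas YTHDF1 was at 9.70 to 33.9 CPM against 70.7 to 101 CPM (−1.83 ± 0.43, edgeR adjusted p = 0.00990).

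The sums were also taken in single cells. With each cell thinned to 10000 UMI, which kept 64 cells of high, 39 of low and 37 of Day 2 embryos, the 29 oocyte genes gave a median of 225 UMI per cell in Day3-E1, 218 in Day3-E3 and 216 in Day3-E5, within the 214 to 234 UMI of the Day 2 medians. In high embryos the medians were 138 in Day3-E2, 105 in Day3-E4, 164 in Day3-E6, 172 in Day3-E7 and 51.5 in Day3-E8. No cell of a low embryo fell below 166 UMI, and 51 of the 64 cells of high embryos did, namely 12 of 13 in Day3-E2, all 11 in Day3-E4, 8 of 14 in Day3-E6, 6 of 12 in Day3-E7 and all 14 in Day3-E8. Day3-E7 spread from 53 to 233 UMI, which was the widest range of the 8 embryos.

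The 77 ribosomal protein genes gave medians of 214, 245 and 283 UMI per cell in Day3-E1, Day3-E3 and Day3-E5 and of 419, 645, 371.5, 528 and 761.5 in Day3-E2, Day3-E4, Day3-E6, Day3-E7 and Day3-E8. Of the 64 cells of high embryos, 52 were above 381 UMI, the highest value in a cell of a low embryo. These were 11 of 13 cells in Day3-E2, all 11 in Day3-E4, 4 of 14 in Day3-E6, all 12 in Day3-E7 and all 14 in Day3-E8, so that most cells of Day3-E6 lay within the range of the low embryos. In Day3-E8 all cells lay between 571 and 1031 UMI. Cells are not replicates, and these values are given without a test.

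**Figure D5:**
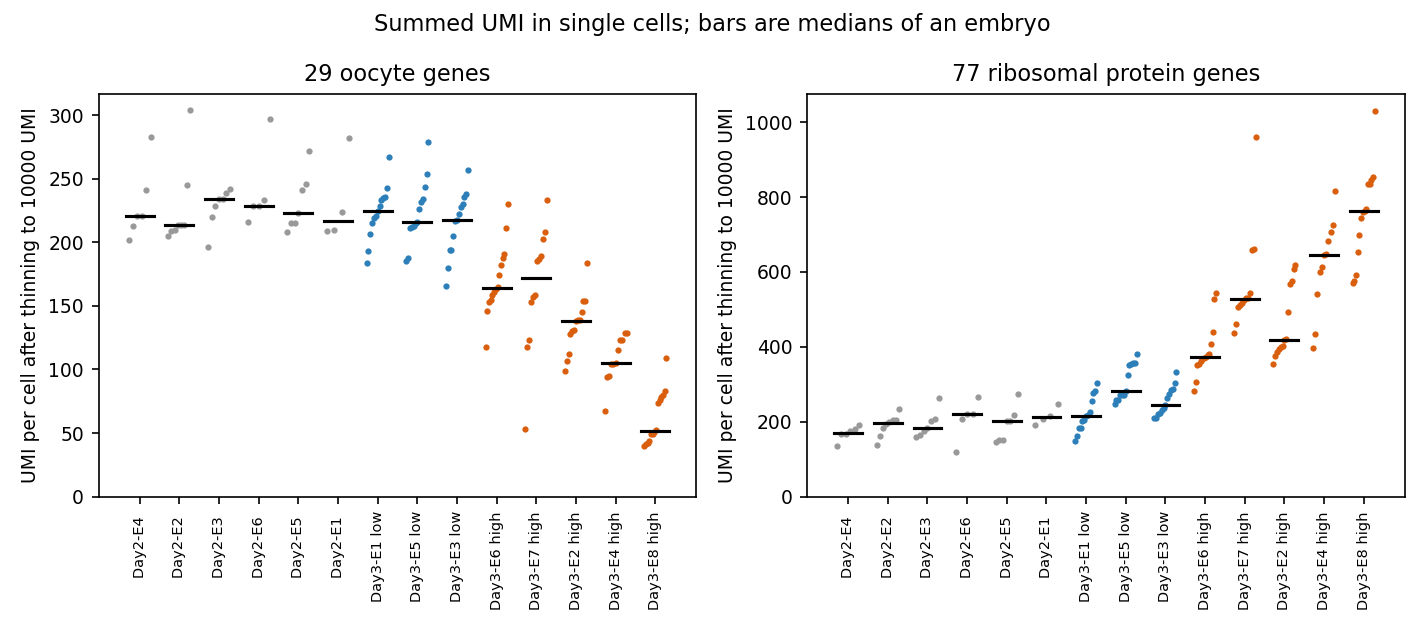
Points are single cells thinned to 10000 UMI, in the order of the 20-gene sum within Day 2, low and high embryos, and bars are medians of an embryo; the left panel sums 29 oocyte genes and the right panel 77 ribosomal protein genes. Low embryos lie at the height of Day 2 embryos on the left (medians 216 to 225 UMI) and high embryos reach down to 51.5 and, on the right, up to 761.5 UMI.

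Markers of other cells a blastomere sample could hold gave no call between high and low embryos with TMM scaling. With ERCC scaling 2 of the 5 cumulus and granulosa genes tested were lower, and 1 was with the 20-gene level as a continuous covariate. Of 18 cumulus and granulosa genes measured, 5 passed the filter and 0 were called by edgeR, and their summed level was 702 to 762 CPM in low, 288 to 616 CPM in high and 639 to 801 CPM in Day 2 embryos. The sum did not overlap between high and low embryos, and its part in the other results was not tested. Most of it came from HAS2, STAR and SERPINE2, with 221 to 300, 131 to 242 and 174 to 241 CPM in low embryos. The 6 sperm genes summed to 38.9 to 101 CPM and the 6 blood genes to 0 to 25.99 CPM in Day 3 embryos, with no call among the 1 and 0 genes tested. None of the cumulus and sperm genes and 2 of the 6 blood genes were at 0 in every Day 3 embryo.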

How the data were processed

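Single blastomeres of 6 Day 2 and 8 Day 3 bovine embryos were measured by SCRB-Seq. The authors mapped the reads with STAR 2.5.2b to the bovine genome Bos tau7 with ERCC sequences, counted UMI with the Drop-seq pipeline and deposited whole-number UMI counts of 10772 genes and 92 ERCC in 170 cells. A normalised table was not used here. Cells with 2000 or more UMI (161) were summed per embryo, which gave 294912 to 920192 UMI on genes. Intervals from UMI cover counting error only. The embryos and lists were chosen with earlier results of these data known. The 20 grouping genes stayed in the totals and out of the test. Genes with 40 or more UMI over the 8 Day 3 embryos (6060) were tested with edgeR 4.0.16 (glmQLFit and glmQLFTest, TMM, R 4.3.3) on the deposited counts, with Benjamini-Hochberg adjustment over all of them and a threshold of 0.05. The ± after a log2 fold change is its SE. Measures of depth were compared by exact permutation over 56 splits. The embryos are separate, and parents shared between them are not given, so that p-values measure the spread between these embryos.

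Named were the 12 largest rises and the 12 largest falls among called genes without overlap between the groups and with a symbol other than a LOC number, up to 4 measured genes per list with the smallest p, and a fixed set of maternal genes and factors. HAS2, STAR and SERPINE2 and the lists of other cell types were named by the same rule. On counts simulated for this comparison over 6060 genes, the test recovered 64.8% of the 4-fold and 8.6% of the 2-fold changes, with a mean of 2 false calls in 5 draws. Alternatives were other scalings, filters, samples and covariates, limma-voom (limma 3.58.1) and DESeq2 1.42.0. The barcode set as a covariate, also with ERCC scaling, the plate as a covariate and the fit without Day3-E4 and Day3-E8 were added after the data were seen. Cells were thinned with numpy 2.4.6. No coordinates or sequences are given, because no genome of the build was used here. One gene that the rule named is not reported here.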

Additional observations from a re-analysis of the deposited data

Results flagged for a closer look

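In the group of 5 high embryos, 65 quantities were tested for a sample far from the others, of which chance flags about 1 in 20, and 2 stood out. MYF5 was at 142 CPM in Day3-E2, with the next high embryo at 55.0 CPM, and was lower in all 5 high than in all 3 low embryos. UMI on genes per UMI on ERCC was 67.3 in Day3-E2, with the next high embryo at 39.0. Day3-E2 was the 1 high embryo in the first set of cell barcodes, in which Day3-E1 had 70.5. Day3-E3, which was placed in that set by its ratio, had 67.9. The part of the barcode set in the level of MYF5 was not tested.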

How the results depend on the processing

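No paired analysis was possible because embryo numbers only name different embryos, and no number occurs in both the high and the low group. Against 1149 called genes, edgeR called 2067 with all 14 embryos in 3 groups, 2383 with the 20-gene level as a continuous covariate, 0 within the later barcodes (854 at an unadjusted p under 0.05) and 0 within plate 1 (1317 at an unadjusted p under 0.05), sets that hold 1 low embryo and 2 embryos a group, respectively, 220 with the barcode set as a covariate, 0 with the plate as a covariate (1389 at an unadjusted p under 0.05), 487 with ERCC scaling and this covariate (273 higher and 214 lower) and 366 without Day3-E4 and Day3-E8. Leaving out 1 embryo gave 305 (without Day3-E1) to 1576 (without Day3-E6). Limma-voom called 1140 and DESeq2 1363. For the 500 genes most abundant on Day 2, of which 63 were called lower, the number was 30 among the top 200, 108 among the top 1000, 106 without scaling, 173 with ERCC scaling, 154 with all 14 embryos, 207 with the continuous covariate, 5 with the barcode set, 0 with the plate, 8 without Day3-E4 and Day3-E8, 0 within either batch, and 6 (without Day3-E1) to 102 (without Day3-E6) when 1 embryo was left out, being below 42 also without Day3-E3, Day3-E4, Day3-E5 or Day3-E8. The median UMI per cell was lower by 6470 in high embryos, with a difference between −10600.5 (without Day3-E5) and 878 (without Day3-E1, exact permutation p = 0.857) when 1 embryo was left out. The causes were not tested. At this depth and number of embryos the test missed most 2-fold changes in simulated counts.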
